A study of Homo sapiens with 52 samples.

Results

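The neurite to soma ratio of a transcript is its level in the processes of a neuron divided by its level in the cell bodies, and the measurements described here are the change of that ratio when hnRNPA1 is knocked down. They come from 24 of the 52 libraries of the series, which are all the libraries of the hnRNPA1 Experiment: 6 neurite and 6 soma libraries of cells with a nontargeting guide RNA, and 6 neurite and 6 soma libraries of cells with an hnRNPA1 guide RNA. For each gene the quantity is (knockdown neurite minus nontargeting neurite) minus (knockdown soma minus nontargeting soma) on the log2 scale, so that a negative value is a ratio that fell and a positive value one that rose. All cells were i3Neurons, neurons made from the human induced pluripotent stem cell line WTC11 by doxycycline. Guides were introduced into the stem cells, the neurons were moved at day 3 onto inserts with 1 µm pores, which let processes but not cell bodies pass, and RNA of both fractions was taken at day 17. Every group therefore shares the cell line, the induction, the guide transduction and the library kit, and the groups differ by fraction and by guide. The libraries were made from 10 ng of total RNA each.

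hnRNPA1 is a nuclear RNA-binding protein that shuttles to the cytoplasm, regulates splicing and RNA export, and binds RNA motifs with a UAGGG core. Transcripts reach neurites by transport in protein-RNA granules, by diffusion and by selective stability, so the ratio of a gene reflects where its RNA lies as well as how much is made. A knockdown that changes both fractions equally leaves the ratio as it was, whatever its effect on the level. These are bulk samples, in which fewer cells of a type and less RNA per cell cannot be told apart. Nothing in the labels says whether the numbered samples came from separate cultures, so the p-values rest on library to library spread, part or all of which may be technical.

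Total counts per library were between 8633883 and 14977395 in control neurites, 6257922 and 9656974 in knockdown neurites, 10883331 and 19415973 in control soma and 8002038 and 16163054 in knockdown soma. All 14 neuron markers averaged over 1 CPM (the count scaled to the size of the library, TMM-scaled for single genes below) in each of the 4 groups, and their summed level was between 10903 and 14270 CPM in every library. The summed level of 10 pluripotency markers was at most 67.4 CPM, and 3 of the 10 averaged over 1 CPM in each group. TDGF1 and ZFP42 were at 0 in all knockdown neurite libraries, the group with the lowest total counts. No marker of the 10 was at 0 throughout another group. The summed level of 15 neural progenitor markers was higher after knockdown without overlap in both fractions. It was 545 to 583 CPM against 614 to 691 CPM in neurites and 416 to 443 CPM against 469 to 535 CPM in soma. Over the 12 markers tested, the median log2 change was 0.13 in neurites and 0.01 in soma, so the median did not match the higher sum in soma. Single markers moved both ways in neurites. NOTCH1 went from a mean of 2.69 to 5.91 CPM and SOX1 from 9.48 to 5.72 CPM, both small beside the sum. The markers that carry the higher sum are not named here. The part of the higher sum in the results was not tested. The 7SL RNA share of counts was 5.55% to 12.2% in control neurites and 10.1% to 18.5% in knockdown neurites, and 1.61% to 2.83% in control soma and 2.75% to 3.29% in knockdown soma. The ribosomal RNA share moved the same way, from 2.31% to 4.47% up to 4.81% to 6.72% in neurites and from 2.32% to 4.68% up to 3.96% to 5.04% in soma. With either share as a covariate, all 35 genes called below were called again. Control neurite libraries 1 and 3 and control soma libraries 3 and 4 stood apart from the others of their group, their deviations from the group mean correlating at 0.50 and 0.65 across genes, and values without them are given where a call depends on them.

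HNRNPA1 itself was lower in both fractions, as the guide's label says. Its level was 548, 595 and 623 CPM (lowest, median and highest of 6) in control neurites and 182, 199 and 223 CPM in knockdown neurites. In soma it was 329, 368 and 379 CPM in controls and 125, 142 and 152 CPM after knockdown. No knockdown library reached the lowest control library in either fraction. The log2 change was -1.55 ± 0.06 (SE) in neurites and -1.36 ± 0.06 in soma, and the change of its ratio was -0.19 ± 0.08, with an adjusted p of 0.463 (edgeR's quasi-likelihood test, Benjamini-Hochberg over all genes). HNRNPA1L3, a near-identical copy whose reads cannot be told from those of HNRNPA1 with certainty, changed by -1.68 and -1.32 in the same fractions. The paralogs HNRNPA2B1, HNRNPA3, HNRNPA0 and HNRNPAB had changes of ratio between 0.03 and 0.15, none of them called.

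Of 19812 genes tested, 35 had a changed ratio at an adjusted p under 0.05, which is 0.177% of the genes. The ratio fell for 26 (0.131%) and rose for 9 (0.0454%). At an unadjusted p under 0.05 there were 1800 genes, 9.09% of those tested, of which 904 rose and 896 fell, and the median over all genes was 0.00. DESeq2 called 77 genes (0.389%) and limma-voom 38 (0.192%), and 32 genes were called by all 3 tools. DESeq2 gave no adjusted p for HK2 and CALCRL. The fractions taken one at a time gave many more calls: knockdown changed 3203 genes (16.2%) in neurites and 1404 (7.09%) in soma. Neurites and soma differed for 9582 genes (48.4%) in controls and for 7092 (35.8%) after knockdown. Scaling by library size rather than by TMM, 71 genes were called, 7 higher and 64 lower, against 9 and 26. That scaling moved the median over all genes to -0.09, and 28 of the 35 genes were called again. All 26 lower genes were among them, but of the 9 higher genes HK2 and PLCH2 kept the call and SHMT2, SREBF1, PPP1R14C, TGFB1, BTBD17, RHOC and CALCRL lost it.

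**Figure D1:**
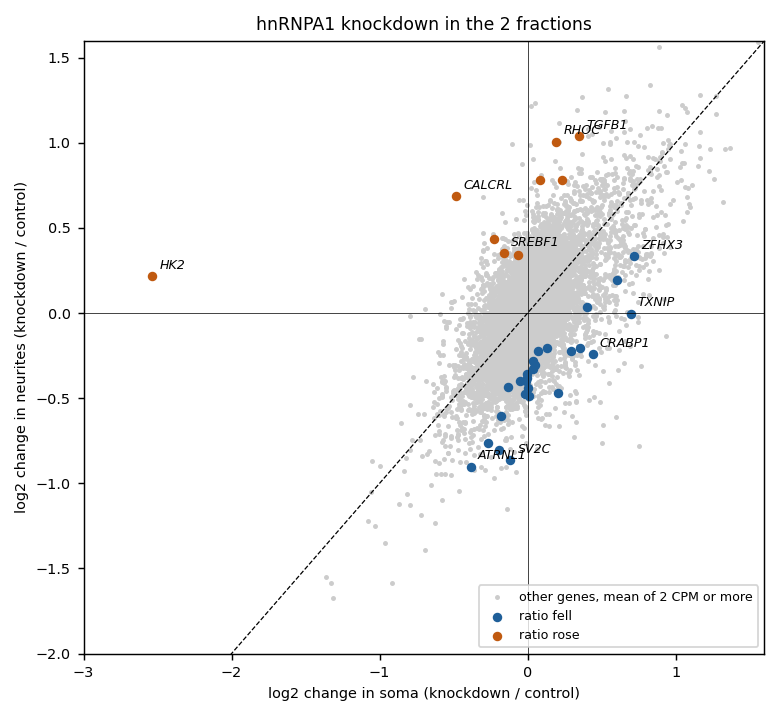
Each point is a gene, placed by its log2 change after hnRNPA1 knockdown in soma (horizontal) and in neurites (vertical); the dashed line marks equal change. The 26 genes whose ratio fell lie below the line and the 9 whose ratio rose lie above it, with HK2 far to the left at a soma change of -2.54.

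Because hnRNPA1 binds UAGGG motifs, one site of TAGGGA or TAGGGT is shown for the genes with the lowest change of ratio that have a site in their reference transcript, and for both genes with a higher ratio that have one. ADRA1A, which comes before ATRNL1 in that order and also holds 1 site, is not shown. The letters are GENCODE release 29 transcripts on hg38, sense strand, 5′ to 3′, with the motif in capitals. The SV2C, TXNIP, ESRRG, ATRNL1 and CALCRL sites lie in the 3′ UTR, the UNC13C site in the coding sequence and the RHOC site in the 5′ UTR.
SV2C: atcttctcagTAGGGAaaaacaaaca
TXNIP: actgtgtctcTAGGGTtaagccaaaa
ESRRG: gcacgggcttTAGGGTaaatgctcat
UNC13C: ccaactttggTAGGGAaaaattcata
ATRNL1: gctatattttTAGGGAggctaagcag
CALCRL: taatacaaatTAGGGAaatacttgaa
RHOC: gcggaaggtgTAGGGTgggccggcaa
The SV2C motif is at chr5:76328417-76328422 on the plus strand, the TXNIP motif at chr1:145992972-145992977 on the minus strand and the ATRNL1 motif at chr10:115946917-115946922 on the plus strand. The UNC13C motif spans an exon junction. Of the 26 genes whose ratio fell, 18 (69.2%) held either motif at least once, and of the 9 whose ratio rose, 2 (22.2%) did, beside 48.7% of 13869 protein-coding genes tested. The transcripts of the 26 were longer, and per kilobase the motif was found 0.168 times in them, 0.0635 times in the 9 and 0.225 times over all. These are counts of letters in 1 reference transcript a gene, not of bound sites.

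The 26 genes whose ratio fell reached that by different routes. Knockdown lowered 20 of them in neurites, of which 16 were not called in soma and 3 (ATRNL1, PALS2 and SLC8A1) also fell in soma, by less. The remaining gene of the 20, CRABP1, fell in neurites and rose in soma. TXNIP, ADRA1A, ID2 and SEMA3E rose in soma and were not called in neurites, while FRAS1 and ZFHX3 rose in both fractions, more in soma. In control cells 25 of the 26 had a ratio above 0 on the log2 scale, ESRRG being the exception at -0.09. Because the ratio in these controls enters the change itself, the same ratio was read in the control libraries of the TDP-43 Experiment, where 25 of the 26 and 4 of the 9 were above 0, beside 46.9% of all genes.

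Among the genes that fell in neurites, a pair encode presynaptic proteins. SV2C, a synaptic vesicle glycoprotein, was at 20.6, 26.2 and 29.8 CPM in control neurites and at 11.8, 14.2 and 16.03 CPM in knockdown neurites, and at 8.09, 8.32 and 11.2 CPM in control soma and 7.18, 8.56 and 9.05 CPM in knockdown soma. Every knockdown neurite library was below every control one, whereas the soma groups overlapped. The change of its ratio was -0.75 ± 0.14 (adjusted p = 0.0156), from a control ratio of 1.49 to 0.74. UNC13C, which primes synaptic vesicles for release, was at 110, 125 and 139 CPM in control neurites and 53.9, 71.9 and 91.2 CPM after knockdown. In soma it was at 43.82, 45.7 and 51.8 CPM and at 37.2, 40.9 and 43.21 CPM. The groups did not overlap in neurites, and in soma they were apart by a narrow margin. The ratio changed by -0.61 ± 0.12 (adjusted p = 0.0214). The paralogs SV2A and SV2B, with changes of 0.10 and -0.02, and UNC13A and UNC13B, with -0.08 and -0.07, were not called.

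SLC8A1, the sodium-calcium exchanger NCX1, had one of the lowest p-values. It was at 267, 282 and 291 CPM in control neurites, 164, 187 and 202 CPM in knockdown neurites, 180, 193 and 211 CPM in control soma and 164, 167 and 181 CPM in knockdown soma. Its ratio changed by -0.42 ± 0.07 (adjusted p = 0.00799), with a neurite change of -0.60 and a soma change of -0.18. The knockdown neurite libraries all lay below the control ones, and the exchangers SLC8A2 (0.04) and SLC8A3 (-0.23) were not called.

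ATRNL1, an attractin-like membrane protein, had the greatest neurite decrease of the 26, at -0.90, with -0.38 in soma. It went from 250, 283 and 321 CPM to 120, 157 and 178 CPM in neurites, and its ratio changed by -0.52 ± 0.11. PALS2, a membrane-associated scaffold of the MAGUK family, changed by -0.76 in neurites and -0.27 in soma, and its ratio by -0.49 ± 0.11. The relatives ATRN and PALS1 had changes of ratio of -0.03 each.

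A number of the 26 encode regulators of gene expression. ESRRG, an orphan nuclear receptor, was at 10.4, 12.3 and 13.2 CPM in control neurites and 7.34, 8.29 and 11.6 CPM after knockdown, and its soma level was 11.6, 12.5 and 14.6 CPM against 14.3, 14.9 and 15.5 CPM. The groups overlapped in both fractions, and the ratio changed by -0.67 ± 0.12 (adjusted p = 0.0156). ZNF91, a KRAB zinc finger protein that represses retrotransposons, changed by -0.48 in neurites and -0.02 in soma, and its ratio by -0.46 ± 0.09. ZC3H12B, a CCCH zinc finger protein, changed by -0.49 in neurites and 0.01 in soma, and its ratio by -0.50 ± 0.11. BPTF, a subunit of the NURF chromatin remodeler, and BACH1, a heme-responsive repressor, had ratio changes of -0.36 and -0.35. QSER1, a chromatin protein that protects DNA from methylation, changed by -0.38.

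Other members are cytoskeletal, membrane or centrosomal proteins. SPECC1 changed by -0.44, the actin nucleator FMN2 by -0.32, and the actin-associated adaptor SORBS2 by -0.30, all of them with a decrease in neurites. The giant cadherin FAT3 changed by -0.35, the bicarbonate transporter SLC4A7 by -0.39, the basal body protein ALMS1 by -0.34, and PCNX2 by -0.35. All of these genes were at 90.4 CPM or more in every library.

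A further set moved mainly in soma. TXNIP, an inhibitor of thioredoxin that also restrains glucose uptake, was at 107, 111 and 137 CPM in control neurites and 93.0, 120 and 138 CPM after knockdown. In soma it was at 30.1, 35.7 and 37.2 CPM in controls and 51.3, 55.7 and 61.9 CPM after knockdown. The neurite groups overlapped, the soma groups did not, and the ratio changed by -0.70 ± 0.11 (adjusted p = 0.00386). CRABP1, a cytosolic retinoic acid-binding protein, rose in soma from 40.3, 45.2 and 50.4 CPM to 54.8, 58.9 and 73.0 CPM and fell in neurites from 59.5, 69.8 and 75.6 CPM to 49.3, 58.7 and 72.0 CPM. Its soma groups were apart and its neurite groups overlapped. The log2 ratio went from 0.62 to -0.06, a change of -0.68 ± 0.11 (adjusted p = 0.00386).

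SEMA3E, a secreted axon guidance protein, was at 35.8, 39.7 and 42.4 CPM in control soma and 50.7, 51.8 and 53.5 CPM in knockdown soma, with no overlap, while its neurite change was 0.03. Its ratio changed by -0.37 ± 0.07 (adjusted p = 0.0156). ADRA1A, the alpha-1A adrenergic receptor, and ID2, an inhibitor of basic helix-loop-helix factors, changed by 0.35 and 0.29 in soma and -0.21 and -0.22 in neurites, and their ratios by -0.56 ± 0.11 and -0.52 ± 0.11. FRAS1, a basement membrane protein, and ZFHX3, a homeobox transcription factor, rose by 0.19 and 0.33 in neurites and by 0.60 and 0.72 in soma.

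The 9 genes whose ratio rose include regulators of metabolism. HK2, a hexokinase that starts glycolysis, had the largest change of all called genes at 2.75 ± 0.47 (adjusted p = 0.00799). It was a low transcript, at 1.66, 4.56 and 7.83 CPM in control soma and 0.455, 0.55 and 1.33 CPM in knockdown soma. In neurites it was at 1.46, 1.98 and 2.59 CPM in controls and 1.166, 2.31 and 3.90 CPM after knockdown. The soma groups did not overlap and the neurite groups did. The ratio of its paralog HK1 changed by 0.07 and was not called.

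SREBF1, the transcription factor that drives lipid synthesis genes, was at 19.9, 25.7 and 28.2 CPM in control neurites and 29.2, 31.5 and 33.5 CPM after knockdown, and at 35.3, 42.7 and 45.6 CPM and 33.1, 36.8 and 39.9 CPM in soma. The neurite groups were apart, and the ratio changed by 0.52 ± 0.10 (adjusted p = 0.0274). SREBF2 changed by 0.07. SHMT2, the mitochondrial serine hydroxymethyltransferase, rose in neurites by 0.34 with a soma change of -0.06, and its ratio changed by 0.40 ± 0.09.

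TGFB1, a secreted growth factor, was at 10.5, 11.4 and 12.6 CPM in control neurites and 17.6, 23.5 and 28.5 CPM in knockdown neurites, and at 5.34, 6.64 and 7.66 CPM and 7.202, 7.81 and 9.41 CPM in soma. It rose in both fractions, by 1.04 and 0.35, and its ratio changed by 0.69 ± 0.14 (adjusted p = 0.0299). RHOC, a small GTPase, changed by 1.01 in neurites and 0.19 in soma, and its ratio by 0.81 ± 0.18. Its adjusted p of 0.0499 stood at the threshold, and the call was lost when any of 20 of the 24 libraries was left out.

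PLCH2, a phospholipase C, rose by 0.43 in neurites with -0.23 in soma, and its ratio changed by 0.66 ± 0.13. PPP1R14C, an inhibitor of protein phosphatase 1, and BTBD17 each rose by 0.78 in neurites, and their ratios changed by 0.55 ± 0.12 and 0.69 ± 0.15. CALCRL, the receptor subunit for calcitonin gene-related peptide, was at 1.73, 2.10 and 2.39 CPM in control neurites and 2.699, 3.41 and 4.43 CPM after knockdown, and its ratio changed by 1.172 ± 0.24. Without the 4 control libraries that stood apart, ID2, ZC3H12B, PPP1R14C, RHOC and CALCRL were not called and the other 30 genes were.

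**Figure D2:**
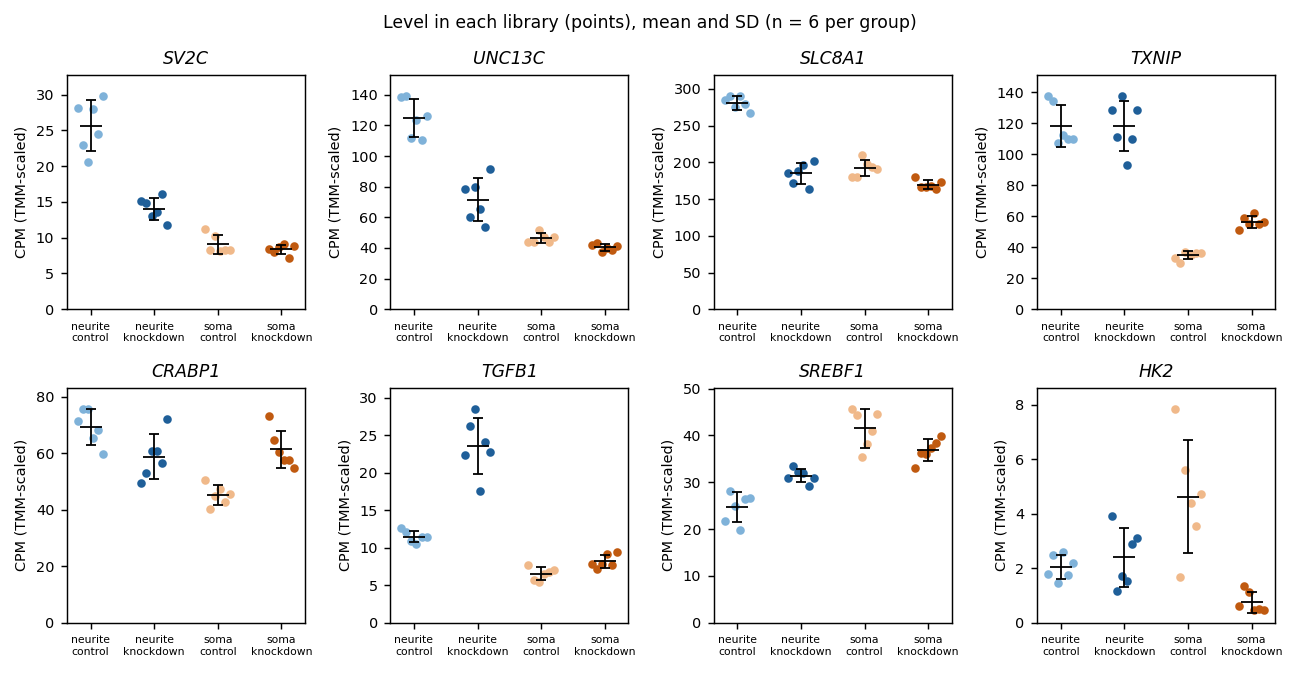
CPM of 8 called genes in each library (points) with the mean and SD of 6 libraries a group, each panel starting at 0. SV2C, UNC13C and SLC8A1 are lower in knockdown neurites, TXNIP and CRABP1 are higher in knockdown soma, TGFB1 and SREBF1 are higher in knockdown neurites and HK2 is lower in knockdown soma.

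Gene lists by function held few calls. Beside the 0.177% called over all genes, 2 of the 56 presynaptic genes tested were called, SV2C and UNC13C. HK2 was the 1 call among 25 glycolysis genes and SEMA3E the 1 among 62 axon guidance genes, and the other 26 pathway lists had none. At an unadjusted p under 0.05, where 4.56% of all genes were higher and 4.52% lower, 2 of the 56 presynaptic genes were higher and 11 lower, with a median of -0.03, and 7 of the 25 glycolysis genes were higher and 0 lower, with a median of 0.12. Scaled by library size, 2 glycolysis genes were higher and 2 lower. Of 24 cholesterol synthesis genes 12 were higher and 0 lower, and scaled by library size 4 were higher and 0 lower. Their median change of ratio was 0.22, beside 0.00 over all genes, with a median of 0.07 in neurites and -0.23 in soma. INSIG1, which holds the SREBP complex in the endoplasmic reticulum, changed by 0.35 ± 0.08 (adjusted p = 0.0785), and LSS, the lanosterol synthase, by 0.33 ± 0.08 (adjusted p = 0.116).

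Cytosolic ribosomal protein genes went the other way. Of 79 tested, 15 were lower and 1 higher at an unadjusted p under 0.05, with a median of -0.15, a median of -0.14 in neurites and of 0.01 in soma. The number lower was 48 when scaled by library size, which moved the median over all genes to -0.09. It was 47 with the ribosomal RNA share and 30 with the 7SL share as a covariate, and 28 without the 4 control libraries that stood apart. It was 16 with DESeq2, 21 with offsets for GC content and transcript length, and 23 with the sample number as a block within each arm. The shares over all genes that go with these settings are not given, here or for the other lists. At an adjusted p under 0.05 in the test of each setting, they called 38 to 77 genes over all genes, against 35. A change of these counts between settings therefore cannot be read as particular to a list. RPS24 changed by -0.43 ± 0.12 (adjusted p = 0.168) and RPL12 by -0.43 ± 0.13 (adjusted p = 0.262). As a share of all counts these genes made up 2.19% to 2.60% of control neurite libraries and 1.76% to 2.12% of knockdown neurite libraries, which do not overlap, and 1.178% to 1.404% and 1.154% to 1.336% in soma. The log2 change of the ratio of that share was -0.24 (exact permutation test within fractions, two-sided, p = 0.0385, adjusted p = 0.296 over 8 shares and totals).

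All 13 mitochondrially encoded protein genes had a positive change, beside 10067 of the 19812 genes tested. Their median was 0.29, and 2 of them, MT-CO3 and MT-CO1, had an unadjusted p under 0.05. Without the 4 control libraries that stood apart the median was 0.14, and none of the 13 had such a p. With offsets for GC content and transcript length 7 of them did, as with the sample number as a block within each arm. With the 7SL share as a covariate 5 did, and scaled by library size or with DESeq2 0 did. The change of the ratio of their summed share was 0.19 (exact permutation p = 0.367, adjusted p = 0.495). Among 37 tested stress response genes (unfolded protein and integrated stress), 10 were higher and 1 lower at an unadjusted p under 0.05, led by SESN2 at 0.44 ± 0.11 and TRIB3 at 0.57 ± 0.16 (adjusted p = 0.123 and 0.168). The median of this list was 0.08. Scaled by library size, which moves the genes as a whole by the shift given above, it was -0.01, and those of the cholesterol, ribosomal and mitochondrial lists were 0.14, -0.24 and 0.20. Without the 4 control libraries 9 genes of the stress list were higher and 5 lower. No proteasome gene and no gene of endoplasmic reticulum translocation had an unadjusted p under 0.05, of 34 and 45 tested.

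**Figure D3:**
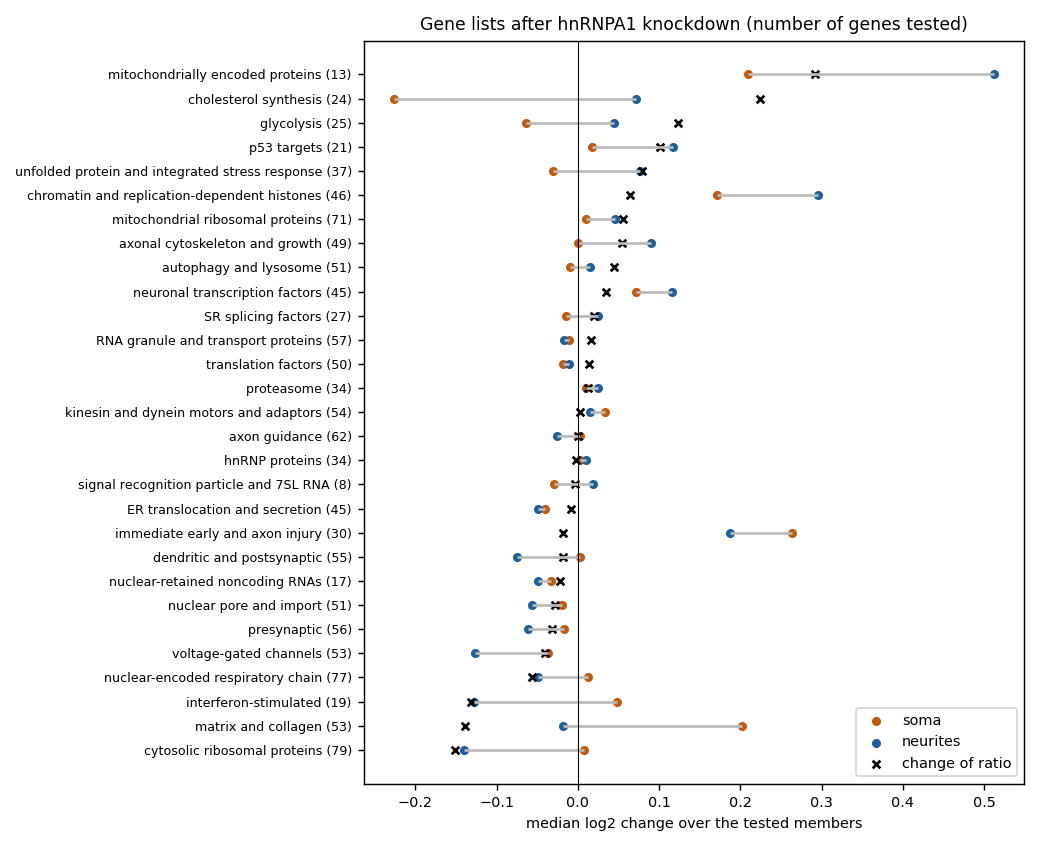
Median log2 change over the tested members of 29 gene lists in soma, in neurites and as the change of the ratio (crosses), ordered by the last. The mitochondrially encoded and cholesterol lists have the highest medians of the ratio, 0.29 and 0.22, and the ribosomal protein list the lowest, -0.15. Without the 4 control libraries that stood apart the first pair were 0.14 and 0.22.

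The called genes differed in length, base composition and level. The 26 genes whose ratio fell had a median reference transcript of 7252 nt and a GC content of 44.7%, the 9 whose ratio rose 2769 nt and 57.7%, and all 13869 protein-coding genes 3267 nt and 49.4%. Their median levels were 138, 12.4 and 22.3 CPM in the same order. The part of level in which genes were called was not tested. Over all genes, the median change of ratio went from -0.03 in the quintile with the lowest GC content to 0.11 in the quintile with the highest, and from 0.04 in the quintile with the shortest transcripts to -0.04 in the quintile with the longest, which holds 17 of the 26. With offsets for both properties, chosen after seeing the data, 38 genes were called, 11 higher and 27 lower. The 27 genes shared with the 35 included SV2C, UNC13C, TXNIP, CRABP1, SLC8A1 and HK2, and ZC3H12B, ZFHX3, BPTF, FAT3, PCNX2, ALMS1, TGFB1 and BTBD17 were not called.

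**Figure D4:**
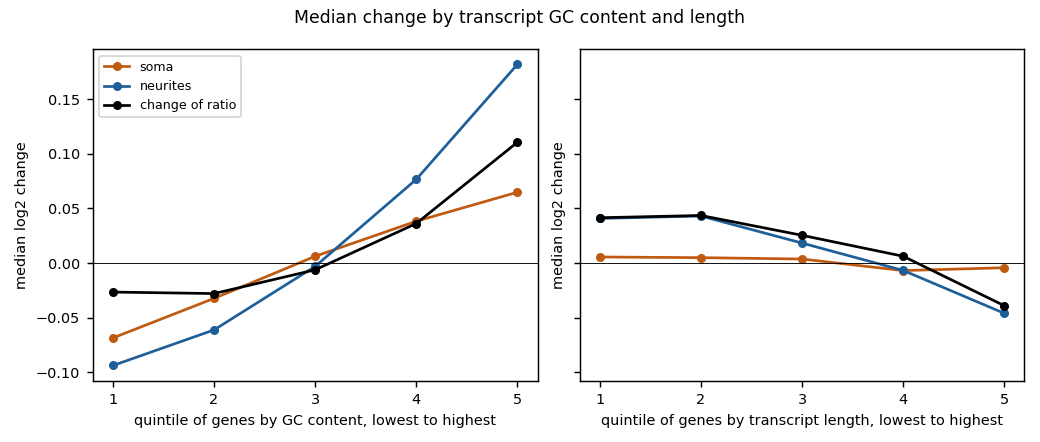
Median log2 change in soma, in neurites and as the change of ratio for genes sorted into quintiles by GC content (left) and by length (right) of the reference transcript. The medians rise with GC content, to 0.18 in neurites and 0.06 in soma, and the change of ratio falls to -0.04 in the longest quintile.

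The same change of ratio was measured in the TDP-43 Experiment, with other control libraries, for TDP-43, another nuclear RNA-binding protein. Each knockdown was done in its own experiment, so an effect of the guide cannot be told apart from one of the experiment. The 19 libraries of the TDP-43 Experiment (1 soma library with almost no counts left out) were fitted together with the 24. In that fit 2268 of 22890 genes (9.91%) had a changed ratio after TDP-43 knockdown, 1404 higher (6.13%) and 864 lower (3.77%), and 25 (0.109%) after hnRNPA1 knockdown, and the 2 changes differed for 668 genes (2.92%), of which 174 (0.76%) were higher and 494 (2.16%) lower for hnRNPA1; by library size the split was 28 and 174. All 35 genes were in the fit: 13 had the same sign after TDP-43 knockdown, and the difference was called for 20. Since the 35 were picked by their change after hnRNPA1 knockdown, which is part of the difference, the choice of genes favors such calls. After TDP-43 knockdown 7 of the 35 were called, 1 with the same sign and 6 with the opposite one.

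The gene called in both with the same sign was PLCH2, at 0.54 after TDP-43 knockdown. ADRA1A changed by 0.91 after TDP-43 knockdown (adjusted p = 5.64e-06), so that its change after hnRNPA1 knockdown was lower by a log2 difference of -1.47. SV2C changed by 0.56 (adjusted p = 0.0294), a difference of -1.304, but its control ratio was 1.49 in the hnRNPA1 Experiment and 0.02 in the TDP-43 Experiment. FRAS1, ZFHX3, SEMA3E and SORBS2 rose by 0.33, 0.40, 0.37 and 0.25 after TDP-43 knockdown. For TXNIP, CRABP1, UNC13C and HK2 the difference was not called, at adjusted p of 0.186, 0.59, 0.113 and 0.465.

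**Figure D5:**
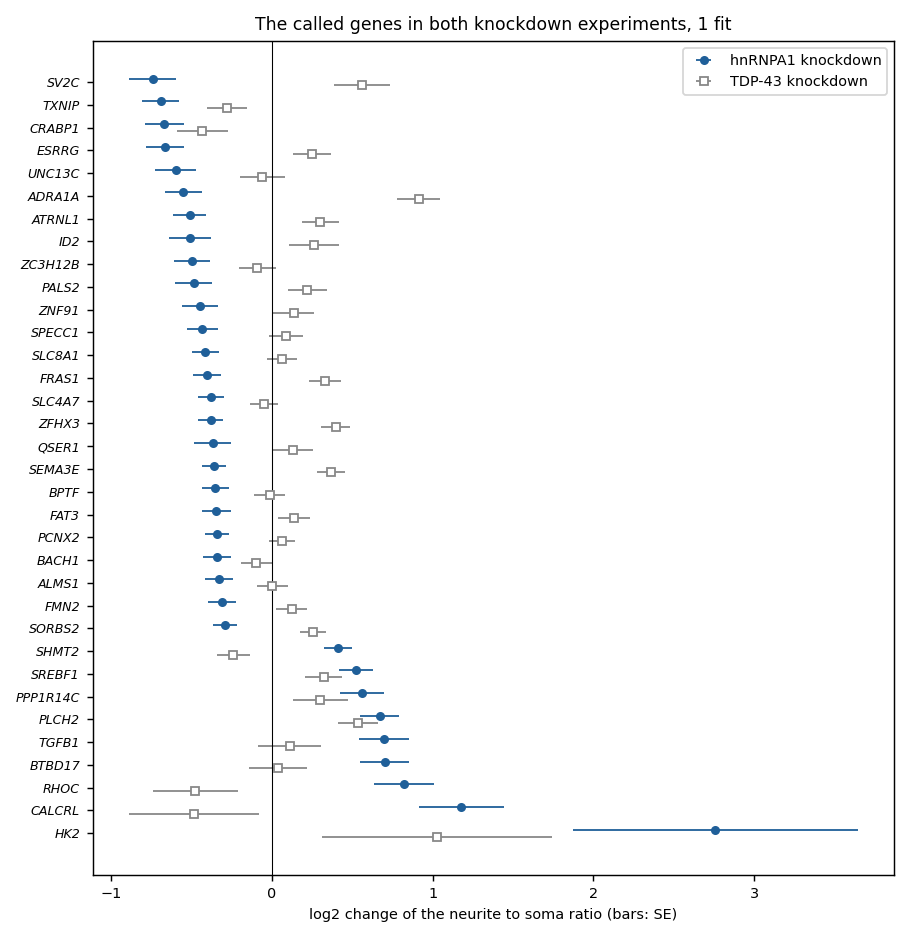
Log2 change of the neurite to soma ratio of 34 called genes after hnRNPA1 knockdown (circles) and TDP-43 knockdown (squares), from 1 fit, with SE bars. ADRA1A and SV2C have squares to the right of 0 and circles to the left, while PLCH2 lies to the right in both.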

How the data were processed

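The authors' deposited table holds estimated read counts per gene (expected counts, 81.1% of nonzero values whole within 0.005), made with STAR 2.7.11b and featureCounts of Subread 2.0.6 on hg38, per the submitters' processing notes. Values were rounded and tested with edgeR 4.0.16 (TMM, filterByExpr, quasi-likelihood test, group coefficients) over the 24 libraries of the hnRNPA1 Experiment, and p-values were adjusted over all genes tested. The test was run on simulated data, with 200 genes of 19812 given a changed ratio and split over the folds. It found 58.2% at 1.5-fold, 73.1% at 2-fold and 83.3% at 4-fold, and 5.3% of its calls were in error. Simulated counts varied independently from gene to gene, with the spread fitted here. Deviations shared across genes, as in the control libraries that stood apart, were absent, so these rates may not hold for the real libraries. A library with under 100000 counts was left out. Shares of counts were compared by exact permutation of the guide labels within each fraction. The null of that test is no effect of knockdown in either fraction, so it is not a test of an unchanged ratio alone. DESeq2 1.42.0 and limma 3.58.1 (voom) were alternatives, with other scalings, filters, covariates and left-out libraries. Genes are named by rule: mean of 2 CPM or more and adjusted p under 0.05, the 12 highest, the 12 lowest and the 6 lowest p, HNRNPA1 with its paralogs, and up to 4 members of each list. FRAS1, SLC4A7, ZFHX3, QSER1, BPTF, FAT3, PCNX2, BACH1, ALMS1, FMN2 and SORBS2 lie outside it and are named, after their values were seen, to account for the calls, of which 1 is not reported here by name; so are the paralogs of called genes. The members and lists were chosen with earlier results of these data known. The sources used here do not state how strand and molecular identifiers were treated in counting. No 2 libraries of a group were copies (chi-square per degree of freedom 1.91 to 31.3 over 60 pairs).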

Additional observations from a re-analysis of the deposited data

Results flagged for a closer look

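In 8 of 176 groups of 6 libraries 1 library lay far from the others by Dixon's test, which chance gives in about 1 of 20 groups. ZC3H12B was at 14.04 CPM in knockdown soma 6, ZFHX3 at 46.1 CPM in control soma 6, FMN2 at 135 CPM in control soma 1 and PPP1R14C at 10.3 CPM in control soma 4, each above the rest of its group. SHMT2 was at 78.2 CPM in knockdown soma 3, below the others, and CALCRL at 1.97 CPM in the same library, above them. Control neurite 3 held 5.55% of 7SL RNA against 10.5% to 12.2% in the other 5, and 0.0255% of MALAT1, above the others.

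For 20 of the 35 genes the change of ratio differed between the knockdown experiments, and 19 of these are given. Values are hnRNPA1 minus TDP-43, log2, from edgeR's test of the difference in 1 fit. Guide and experiment cannot be told apart in it. Over all genes the share was 2.92%. The 35 were picked by their change after hnRNPA1 knockdown, which is part of the difference, so the choice of genes favors such calls. In that fit the hnRNPA1 change itself was not called for ID2, PALS2, ZNF91, FAT3, FMN2 and SORBS2. The difference between the knockdowns was -1.304 for SV2C, -0.92 for ESRRG, -1.47 for ADRA1A, -0.81 for ATRNL1, -0.77 for ID2, -0.71 for PALS2, -0.58 for ZNF91 and -0.52 for SPECC1. For SLC8A1 it was -0.48, for FRAS1 -0.73, for ZFHX3 -0.78, for SEMA3E -0.73, for FAT3 -0.48 and for PCNX2 -0.41. FMN2 differed by -0.43 and SORBS2 by -0.55. Among the genes whose ratio rose, SHMT2 differed by 0.65, RHOC by 1.297 and CALCRL by 1.67.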

How the results depend on the processing

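All 35 genes kept their sign in every alternative, and the number called moved. Against 35 genes (9 higher, 26 lower), library sizes gave 71 (7 and 64), DESeq2 77 (21 and 56), no filter 140 (35 and 105), the ribosomal RNA share as a covariate 63 (20 and 43) and the 7SL share 66 (25 and 41). All 51 libraries in 1 fit gave 8 (3 and 5), and an adjusted p under 0.01 gave 4 (1 and 3). Of the alternatives chosen after seeing the data, leaving out the 4 control libraries gave 69 (20 and 49) and thinning each library to 6000000 counts 12 (1 and 11), of which 10 are among the 35. Leaving out 1 library gave 12 to 73 genes, 2 to 32 higher and 10 to 41 lower: the fewest without knockdown neurite 2 and the most without control soma 3. The call survived every such omission for 12 genes: SV2C, TXNIP, CRABP1, ESRRG, ADRA1A, SLC8A1, FRAS1, ZFHX3, SEMA3E, ALMS1, PLCH2 and HK2. Of these, SV2C, ADRA1A, ZFHX3, SEMA3E, ALMS1, PLCH2 and HK2 lost the call in the thinned libraries. In the fit of 51 libraries ADRA1A, SLC8A1, FRAS1, ZFHX3, SEMA3E, ALMS1 and HK2 lost it. The cause of these moves was not tested.

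Both fractions carry the same sample numbers, and correlation did not settle whether these mark pairs. The main test used no pairing. Of 12 same-numbered pairs 7 correlated over 0.1, and the 12 ranged from -0.38 to 0.66. Of the 12 neurite libraries 4 correlated best with the soma library of their own number. With the number as a replicate block within each arm 55 genes were called (18 and 37), and across the 4 groups 54 (18 and 36).

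The difference from TDP-43 was called for 668 genes (174 higher, 494 lower), for 202 (28 and 174) with library sizes, for 266 higher with DESeq2, and for 492 to 850 (137 to 242 and 348 to 608) with 1 library left out. For the shares no alternative changed a call. Without 1 library, the log2 change was -0.15 to 0.12 for 7SL RNA, 0.27 to 0.47 for MALAT1, -0.10 to -0.04 for cycling markers, -0.27 to -0.21 for ribosomal proteins, 0.10 to 0.27 for mitochondrially encoded proteins, -0.13 to -0.08 for neuron markers, 0.03 to 0.24 for ribosomal RNA and -0.46 to -0.26 for the total count.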

Other observations

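Beyond the called genes, 29 had an adjusted p between 0.05 and 0.1 in edgeR's quasi-likelihood test of the change of ratio, and those named here were chosen after their values were seen. SYN3, a synapsin on synaptic vesicles, changed by -0.41 (adjusted p = 0.0579), with -0.53 in neurites and -0.12 in soma. DPP10, an auxiliary subunit of potassium channels, changed by -0.43, the synaptic adhesion protein TENM2 by -0.44 and HOOK3, an adaptor of the dynein motor, by -0.30. On the other side MDK, a heparin-binding growth factor, changed by 0.53 and the neuronal transcription factor NEUROD4 by 0.61. None of these passed the threshold.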
